A study of Mus musculus with 6 samples.

Results

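The transcription factors described here are Foxa1, Foxa2, Foxa3, Hnf4a, Hnf4g, Cdx1, Cdx2 and Pdx1, which pattern the gut tube and the organs that bud from it. They were found by their gene symbols among the array probes that are not controls. All 8 were on the array, with 10 of its 56583 probes and as 8 of its 37001 genes, since Hnf4a and Pdx1 each had a pair of probes. Of the 8, Foxa1, Foxa2 and Hnf4a were bright enough to test, and Foxa3, Hnf4g, Cdx1, Cdx2 and Pdx1 were not.

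The FOXA proteins are forkhead factors that bind compacted chromatin and open it for other factors, and they act in the foregut, liver, pancreas and lung. Foxa1 and Foxa2 also act in the floor plate, the ventral midline of the neural tube, and Foxa2 acts in the notochord beneath it. HNF4 proteins are nuclear receptors that drive lipid-transport and clotting genes in the liver and absorptive genes in the intestine, CDX1 and CDX2 are homeodomain factors of the intestinal lining and the tail end of the embryo, and PDX1 is the homeodomain factor of the pancreas and duodenum. miR-124a is a microRNA abundant in neurons, and Foxa2 has been described as one of its targets in mouse pancreatic beta cells.

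RNA was measured in 6 teratomas, tumours of mixed tissues that mouse embryonic stem cells (mESCs) had formed under the skin of BALB/c nude mice, which lack T cells but keep B cells and natural killer cells and supply the vessels and stroma of the tumour. The 3 miR-124a tumours had been injected with a miR-124a-3p mimic and the 3 control tumours with a miRNA negative control, in both cases complexed with Atelogen QG and given into the tumour at 15 µg in 100 µL every 3 days until day 28, beginning at about day 10 when tumours had reached 100 mm3. Each tumour was cut into 2 pieces, of which 1 gave the RNA. The comparison sets tumours given the mimic against tumours given the negative control, and the level of the mimic was not analysed here.

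Hnf4a is transcribed from an upstream and a downstream start, known as P2 and P1, and the sequence before each start is shown because Hnf4a was the only one of the 8 factors to pass the test. Capitals mark the letters AGATAA (the GATA motif) and TAATTA (a homeodomain motif), searched on both strands of the 250 bases before a start. The printed stretches end 47 bases before the upstream start and 51 bases before the downstream start, so the bases next to each start are not shown. Sequences are from RefSeq on GRCm38.p6, written 5′ to 3′ along the gene.
Hnf4a before the upstream start, chr2:163506607-163506810, plus strand: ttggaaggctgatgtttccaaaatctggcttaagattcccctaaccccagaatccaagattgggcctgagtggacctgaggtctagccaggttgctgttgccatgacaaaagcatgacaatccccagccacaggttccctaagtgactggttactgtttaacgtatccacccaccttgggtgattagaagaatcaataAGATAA
Hnf4a before the downstream start, chr2:163546905-163547104, plus strand: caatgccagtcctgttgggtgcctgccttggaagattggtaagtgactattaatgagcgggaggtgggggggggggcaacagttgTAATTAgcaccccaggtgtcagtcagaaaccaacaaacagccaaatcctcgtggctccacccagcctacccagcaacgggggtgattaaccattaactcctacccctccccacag
The window of the upstream start held AGATAA 52 bases before it, and that of the downstream start held TAATTA 165 bases before it. AGATAA also stood 183 bases before a start of Foxa2, which did not pass the test. AGATAA occurred in 9.99% of 32851 RefSeq windows of 250 bases and TAATTA in 4.84%.

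Promoter windows were held for 6 of the 8 factors. The forkhead letters TNTTTAC, or their complement, occurred in 10.9% of all windows, and among the factors they stood before Foxa1, Cdx2 and Pdx1. The 30 bases around the match are shown for Foxa1, a gene detected in every tumour, and for Cdx2, whose probe stayed at background, with the match in capitals.
Foxa1, chr12:57546234-57546263, minus strand: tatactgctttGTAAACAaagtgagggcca
Cdx2, chr5:147307271-147307300, minus strand: aatagagtcttGTAAACActcgttaatcac
The Foxa1 match lay 141 bases before the start and the Cdx2 match 40 bases before it. The CDX letters TTTATNG, found in 9.81% of windows, stood 37 bases before Foxa3. The HNF4 letters CAAAGTNCA, found in 1.19% of windows, stood in none of the factors' windows. A match or its absence describes the letters and says nothing about binding in the tumours.

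Between 63.4% and 65.9% of probes per array were well above background, and no spot was saturated. Pearson correlations over genes, which vary together and are no replicates, were 0.9882 to 0.992 within the miR-124a group, 0.9857 to 0.9886 within the control group and 0.9705 to 0.9868 between groups. All arrays shared 1 slide and 1 scan, but the groups occupied different rows of it, so treatment and slide row cannot be told apart in any difference below. The number of arrays, 3 in each group, limits the precision. Signals below are processed spot intensities scaled so that every array had a 75th percentile of 294, and on this scale the dimmest probe well above background lay between 6.14 and 7.46 on the 6 arrays. Signals of different probes are not comparable as levels.

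Foxa1 was strongly detected in every tumour, with no difference between the groups that passed the test. Its signal was 1930, 637 and 1590 in miR-124a tumours 1, 2 and 3, against 719, 1250 and 1750 in control tumours 1, 2 and 3. The groups overlapped, with miR-124a 2 and control 1 the low tumours. The means were 1380 ± 668 in miR-124a tumours and 1240 ± 514 in control tumours (SD, n = 3 each). The log2 difference was 0.10 ± 0.50 (SE), with a 95% interval of -1.10 to 1.31 and an adjusted p of 0.908 (limma, Benjamini-Hochberg over 22946 genes). The highest and lowest tumours of a group differed by 3.02-fold in the miR-124a group and 2.43-fold in the control group. Its sign turned when 1 tumour was left out, to -0.21 when miR-124a 1 was omitted, -0.07 when miR-124a 3 was and -0.24 when control 1 was, and its value was 0.59 without miR-124a 2. Its probe lies on the minus strand of chromosome 12 at 58641764 to 58641823 (mm9, the build of the array annotation).

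Foxa2 was also detected in every tumour and did not pass the test. Its signal was 971, 376 and 721 in miR-124a tumours 1, 2 and 3, against 290, 374 and 970 in control tumours 1, 2 and 3. The groups covered nearly the same span, with miR-124a 1 and control 3 the highest and control 1 the lowest. The means were 689 ± 299 in miR-124a tumours and 545 ± 371 in control tumours (SD, n = 3 each), and the log2 difference was 0.44 ± 0.54 (SE), with a 95% interval of -0.86 to 1.74 and an adjusted p of 0.624 (limma). Tumours differed by 2.58-fold within the miR-124a group and 3.34-fold within the control group. The difference ranged between 0.09 and 0.96 over the alternative settings and did not pass the test in any of them. The probe lies on the minus strand of chromosome 2 at 147868669 to 147868728 (mm9).

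**Figure D1:**
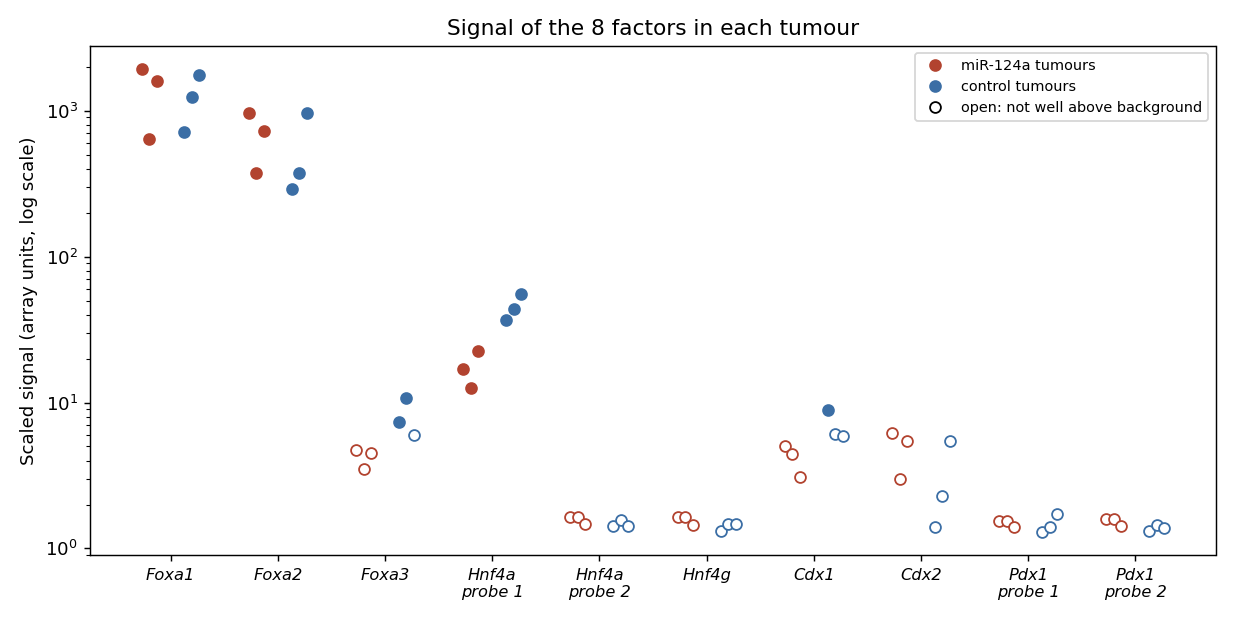
Scaled processed signal (log axis, arbitrary units) of the 8 factors in each tumour, miR-124a tumours left of control tumours, 1 point per tumour; open points are not well above background, and Hnf4a and Pdx1 have a place for each of their probes. Foxa1 and Foxa2 overlap between the groups, the values of Hnf4a probe 1 in miR-124a tumours (12.5 to 22.5) lie below those in control tumours (36.6 to 55.5), and the other factors sit near or below the background range.

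Foxa3, the third FOXA gene and a liver factor, was too dim to test. Its signal was 4.7, 3.52 and 4.51 in miR-124a tumours 1, 2 and 3, against 7.39, 10.8 and 6.02 in control tumours 1, 2 and 3. It was well above background in 0 of 3 miR-124a tumours and 2 of 3 control tumours. The values did not overlap between groups, as for 35.6% of all genes tested. Control 3 was itself not well above background, so no fold is given. With no filter on dim probes the adjusted p was 0.164 (limma).

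Hnf4a was lower in the miR-124a tumours. Its signal was 17.1, 12.5 and 22.5 in miR-124a tumours 1, 2 and 3, against 36.6, 43.6 and 55.5 in control tumours 1, 2 and 3, with no overlap. The means were 17.4 ± 4.99 in miR-124a tumours and 45.2 ± 9.56 in control tumours (SD, n = 3 each). The fit gave a log2 difference of -1.40 ± 0.25 (SE), with a 95% interval of -2.01 to -0.79, an unadjusted p of 0.00122 and an adjusted p of 0.0453 (limma). In bulk tissue, fewer cells of a type and less RNA per cell cannot be told apart. Hnf4a was thus 1 of the 3 tested factors to pass, in a comparison where 3.23% of all genes tested passed in either direction and 2.75% passed as lower. The groups did not overlap for 35.6% of all genes tested, and for 20.6% they separated with miR-124a lower. An unadjusted p under 0.05 was reached by 27.3% of genes.

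The adjusted p of Hnf4a lay close to the threshold. The call was lost in 8 of 15 alternative settings, among them no filter on dim probes (0.101), array weights (0.0626), and leaving out any tumour but miR-124a 3 (0.0778 to 0.149). Its log2 difference was negative in all 15 alternative settings run, between -1.60 and -0.45. The smallest size, -0.45, came with normexp background correction, where the adjusted p was 0.0274 (limma). That setting adds an offset of 50 to every signal, which by arithmetic shrinks the log2 differences of dim probes. The normexp sizes given below are therefore not like-for-like with the fitted ones.

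The probe that gave this result lies on the plus strand of chromosome 2 at 163398548 to 163398607 (mm9). The other Hnf4a probe lies upstream at 163378302 to 163378361 (mm9), and its signal was 1.65, 1.64 and 1.46 in miR-124a tumours 1, 2 and 3, against 1.43, 1.57 and 1.43 in control tumours 1, 2 and 3. Each of those 6 values was a surrogate that the scanner software had put in place of a low signal, so this probe gave no measurement. It lies 20.2 kb from the other, in sequence that codes for the DNA-binding domain, and is shown because it is the stretch of Hnf4a that was not detected.
Hnf4a undetected probe, chr2:163378302-163378361 (mm9), plus strand: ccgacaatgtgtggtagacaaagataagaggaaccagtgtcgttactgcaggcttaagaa
The Hnf4a difference therefore rests on 1 probe. Hnf4g, the HNF4 paralogue of the intestine, likewise had surrogate values on all 6 arrays, between 1.45 and 1.63 in miR-124a tumours and between 1.32 and 1.48 in control tumours.

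CDX and PDX1 signals were at or near background. Cdx1 was at 5.04, 4.46 and 3.07 in miR-124a tumours 1, 2 and 3, against 8.88, 6.07 and 5.89 in control tumours 1, 2 and 3, and it was well above background in 0 of 3 miR-124a tumours and 1 of 3 control tumours. Cdx2 was at 6.23, 2.97 and 5.46 in miR-124a tumours 1, 2 and 3, against 1.41, 2.29 and 5.43 in control tumours 1, 2 and 3, with 0 of 3 above background in each group. The Cdx1 values did not overlap between groups, as for 35.6% of all genes tested, but only control 1 was well above background. The Cdx2 values overlapped. With no filter neither passed (adjusted p = 0.225 for Cdx1 and 0.431 for Cdx2, limma), and no fold is given. One Pdx1 probe lay between 1.40 and 1.55 in miR-124a tumours and between 1.29 and 1.72 in control tumours, the other between 1.42 and 1.58 in miR-124a tumours and between 1.31 and 1.44 in control tumours, and each had surrogates for 5 of 6 values. A level below these limits was not detectable with these arrays, and no direction is given for Cdx1, Cdx2, Pdx1 or Hnf4g.

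Ratios within a tumour ask whether factors changed unequally. The log2 ratio of Foxa1 over Foxa2 differed by -0.33 ± 0.28 (SE) between miR-124a and control tumours, with p = 0.3 (exact two-sided permutation test, n = 3 each, adjusted p = 0.3 over 3 pairs). The ratio of Hnf4a over Foxa1 differed by -1.50 ± 0.39 and that of Hnf4a over Foxa2 by -1.84 ± 0.47, each with p = 0.1 and an adjusted p of 0.15 (exact two-sided permutation test, n = 3 each). With 3 tumours against 3, 0.1 is the smallest p this test can give, so none could pass. The pairs with Hnf4a were chosen after its values were seen. The other within-family pairs each held a factor at background and were not formed.

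Foxa2 varied across the tumours much as floor plate genes did. The floor plate and notochord list held 10 genes, of which 9 were tested and 0 passed in either direction (limma), with a median log2 difference of 0.29 beside 0 over all genes tested. The median lay between 0.05 without control 1 and 0.77 without control 3. All 9 values were positive, and Corin had the largest, at 0.58 ± 0.76 (SE). Shh, the ventral signal of the neural tube, was at 597, 196 and 380 in miR-124a tumours 1, 2 and 3, against 178, 205 and 712 in control tumours 1, 2 and 3. Lmx1a, a homeodomain factor of the midbrain floor plate, was at 632, 245 and 569 in miR-124a tumours 1, 2 and 3, against 209, 307 and 565 in control tumours 1, 2 and 3. Like Foxa2, these genes were low in miR-124a 2, control 1 and control 2. Likeness was taken as the root mean square difference between log2 profiles over the 6 tumours, each centred on its own mean. By this measure Shh, Lmx1a and Ntn1, the secreted guidance cue netrin, were ranks 6, 7 and 8 among 22945 genes for Foxa2, and 8 of the 9 list genes lay within the nearest 5%. The exception was Spon1, at 93%. For Foxa1, 7 of the 9 lay within the nearest 5%. Other lists also held near genes. Within the nearest 5% lay 4 of 9 airway genes for Foxa1, and 2 of 9 pancreatic factors for each of Foxa1 and Foxa2. This is a description over 6 tumours with no test, and all genes of a tumour were read from the same tissue piece and array.

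**Figure D2:**
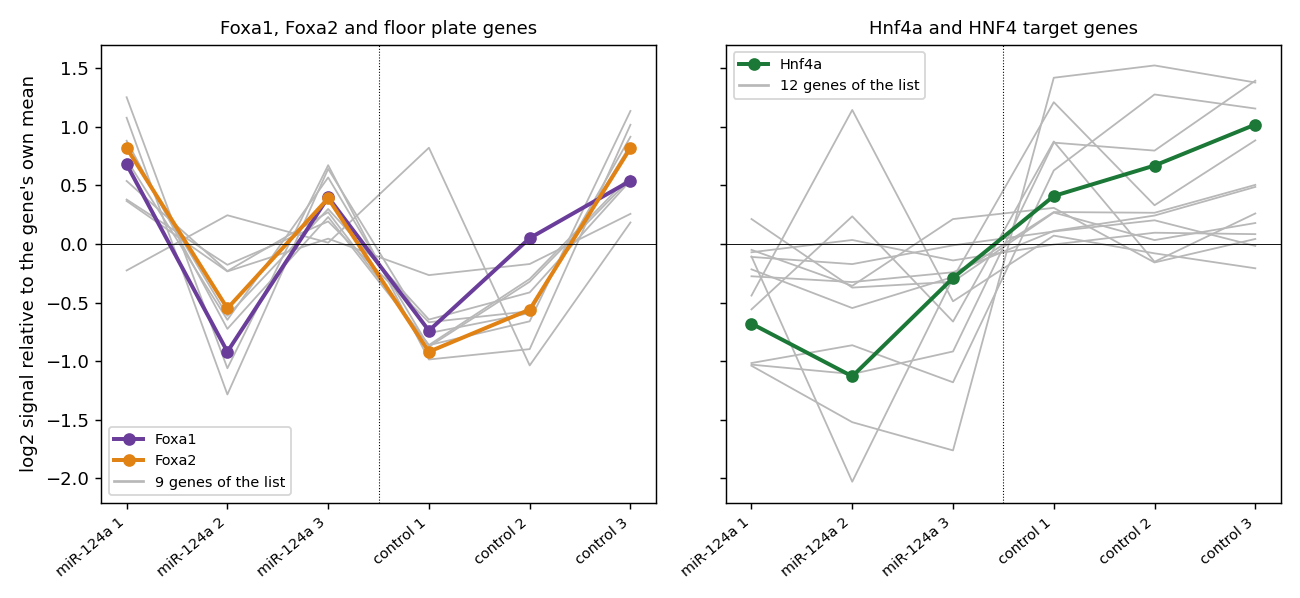
Log2 signal relative to each gene's own mean over the 6 tumours (y axis), miR-124a tumours left of control tumours, with 1 line per gene: at left Foxa1 and Foxa2 over 9 floor plate and notochord genes (grey), at right Hnf4a over 12 HNF4 target genes (grey). Foxa2 is high in miR-124a 1 and control 3 (0.82 each) and low in control 1 (-0.92), as are most grey lines at left, and Hnf4a lies at -1.13 to -0.29 in miR-124a tumours and 0.41 to 1.02 in control tumours.

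Genes of simple epithelia, such as the keratin Krt19 and the claudin Cldn7, were near Foxa1 in the same sense, with 7 of 10 within the nearest 5% of genes. None of those 10 genes passed the test (limma), and their median log2 difference was -0.28 (-0.42 to -0.06 with 1 tumour left out). The genes nearest to Foxa1 were Vtn, encoding vitronectin, Dmrta2 and Ccdc3, at 0.135, 0.164 and 0.19 on the log2 scale. The genes nearest to Foxa2 were Igdcc3, D930028M14Rik and 1700013H16Rik, at 0.15, 0.164 and 0.166. The genes nearest to Hnf4a were Sim2, a bHLH-PAS transcription factor, Musk, a receptor kinase of the neuromuscular junction, and Chrne, a subunit of the muscle acetylcholine receptor, at 0.124, 0.142 and 0.153. Their log2 differences between groups were -1.41, -1.48 and -1.37. The measure takes in the group difference, so genes near Hnf4a share its difference by construction.

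Other genes of liver and gut were examined as lists, with lower calls set beside the 2.75% of all genes tested and higher calls beside 0.488%. Of 16 genes that textbooks give as HNF4 targets, 12 were tested, 4 passed as lower and 0 as higher, and 11 of the 12 had negative values, with a median log2 difference of -0.61. Fabp1, a carrier of fatty acids in hepatocytes and enterocytes, was at 11.8, 8.45 and 7.15 in miR-124a tumours 1, 2 and 3, against 64.9, 69.8 and 63.1 in control tumours 1, 2 and 3. Its log2 difference was -2.88 ± 0.19 (SE, adjusted p = 0.0135, limma), but it was well above background in 1 of 3 miR-124a tumours and 3 of 3 control tumours, so it entered the test through the control group and its miR-124a level is poorly measured. Fabp2, its intestinal relative, had a log2 difference of -2.04 ± 0.18 (adjusted p = 0.017, limma). Apoa4, an apolipoprotein of intestinal lipid transport, had one of -2.04 ± 0.19 (adjusted p = 0.0194, limma). Both were well above background on all 6 arrays, but dim. Fabp2 lay at 10.5 to 12 in miR-124a tumours and 39.4 to 59.6 in control tumours, and Apoa4 at 8.19 to 10.2 and 28.7 to 45. The dimmest probe well above background on the miR-124a arrays lay at 6.67 to 7.46, so the sizes of these differences are uncertain. F2, encoding prothrombin, had one of -0.70 ± 0.13 (adjusted p = 0.0469, limma). Ttr, the thyroid hormone carrier of liver and choroid plexus, was the exception in direction, at 0.14 ± 0.44 without passing. With normexp background correction, whose offset shrinks differences of dim probes, the sizes were -0.87 for Fabp1, -0.66 for Fabp2, -0.50 for Apoa4 and -0.40 for F2. Among the 9 genes that were well above background on all 6 arrays, 3 passed as lower and the median was -0.56. The count of 4 was 0 without miR-124a 2 or without control 2 and 1 without miR-124a 1 or without control 1.

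**Figure D3:**
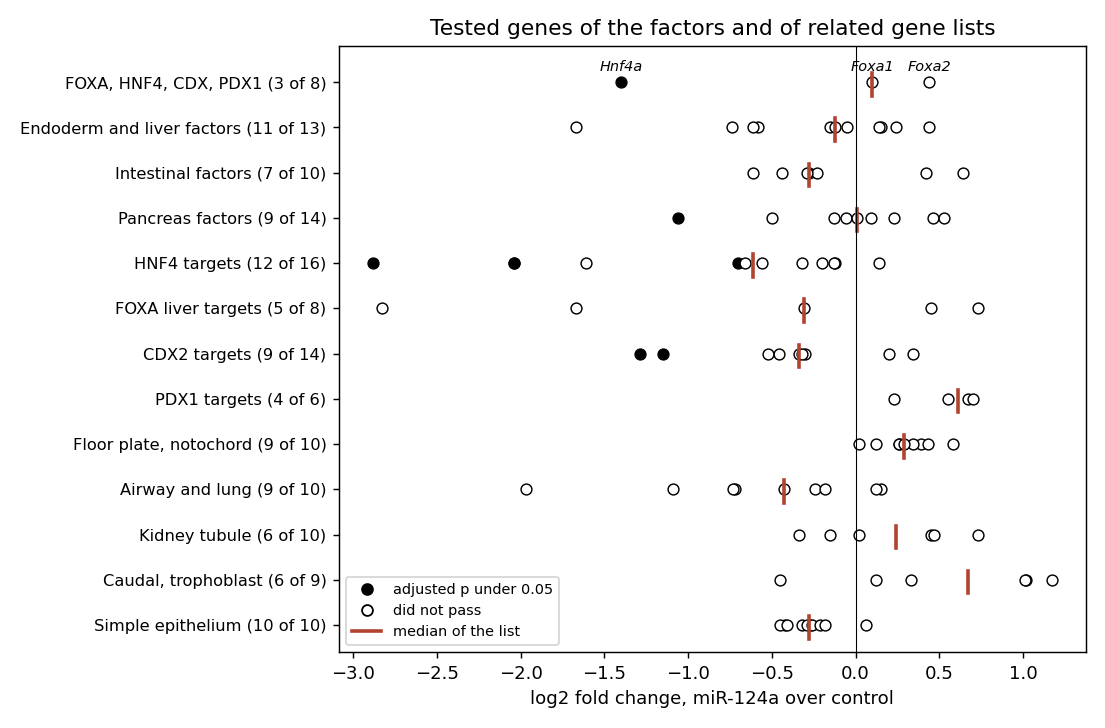
Log2 difference, miR-124a over control (x axis), of the tested genes of each list (rows), 1 point per gene, with filled points passing the test (limma, adjusted p under 0.05) and the list median marked. The filled points all lie below 0, with Hnf4a among the factors, 4 HNF4 targets, 2 CDX targets and 1 pancreas factor.

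Of 14 genes given as CDX targets, 9 were tested, 2 passed as lower and 0 as higher. Lgals4, a galectin of the intestinal lining, was at 178, 151 and 213 in miR-124a tumours 1, 2 and 3, against 372, 517 and 437 in control tumours 1, 2 and 3, a log2 difference of -1.29 ± 0.18 (SE, adjusted p = 0.0271, limma). By the likeness measure, which takes in the group difference itself, Lgals4 was the listed gene nearest to Hnf4a, at rank 20 of 22945. Guca2a, encoding guanylin, had a log2 difference of -1.15 ± 0.19 (adjusted p = 0.0383, limma), and of -0.19 under normexp (adjusted p = 0.0958, limma). Guca2a was well above background in 2 of 3 miR-124a tumours and 3 of 3 control tumours, so it too entered the test through the control group. The count of 2 became 1 when miR-124a 3 was left out and 0 when any other tumour was. It was 1 with normexp, 1 of 8 with the filter on all 6 arrays, and 0 with no filter. Cdx2 was well above background in no tumour and Cdx1 only in control 1.

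FOXA targets of the liver did not pass. Of 8, 5 were tested and 0 passed in either direction, and 3 of the 5 had negative values. Their median log2 difference was -0.31, between -0.81 without control 2 and 0.11 without control 3. Alb, encoding albumin, was at 5.94, 4 and 9.07 in miR-124a tumours 1, 2 and 3, against 21, 26.6 and 138 in control tumours 1, 2 and 3 (adjusted p = 0.0836, limma). Alb was well above background in 1 of 3 miR-124a tumours and 3 of 3 control tumours, and its log2 difference was -2.83 ± 0.74 (SE) as tested and -0.83 with normexp. Alb entered the test through the control group. Its groups did not overlap, as for 35.6% of all genes tested (20.6% with miR-124a lower), and control 3 stood far above the other control tumours. Afp, the fetal counterpart of albumin, was at 109, 26.4 and 78.5 in miR-124a tumours 1, 2 and 3, against 99.2, 99.2 and 740 in control tumours 1, 2 and 3, again with control 3 the highest. Tat, a liver enzyme of tyrosine breakdown, ran the other way, at 46.7, 61.1 and 46.4 in miR-124a tumours 1, 2 and 3, against 44.9, 23.7 and 27 in control tumours 1, 2 and 3 (0.73 ± 0.26, adjusted p = 0.14, limma).

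The 4 tested genes of 6 PDX1 targets had positive values and 0 passed, with a median log2 difference of 0.61 (0.17 with normexp). Ins2, an insulin gene, was at 29.2, 31 and 22.4 in miR-124a tumours 1, 2 and 3, against 19.4, 19.5 and 13.3 in control tumours 1, 2 and 3 (0.67 ± 0.20, adjusted p = 0.107, limma). Sst, encoding somatostatin, which neurons also make, was at 5420, 4890 and 3970 in miR-124a tumours 1, 2 and 3, against 2650, 4330 and 2140 in control tumours 1, 2 and 3 (0.70 ± 0.27, adjusted p = 0.166, limma). Pdx1 itself gave no measurement, so these values cannot be set beside its level.

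Partner factors mostly did not pass. Of 13 other endoderm and liver factors, 11 were tested and 0 passed, with a median of -0.12 (-0.17 to -0.01 with 1 tumour left out). Gata4, an endoderm and heart factor, was at 8.84, 8.77 and 2.76 in miR-124a tumours 1, 2 and 3, against 23.2, 16.2 and 18.3 in control tumours 1, 2 and 3. It entered the test through the control group, since it cleared background in 0 of 3 miR-124a tumours. Control tumours were 2.37-fold higher with miR-124a signals raised to at least each array's lowest signal well above background. That fold does not allow for the spread between tumours. The adjusted p was 0.095 (limma), and with normexp the log2 difference was -0.22. Of 10 other intestinal factors, 7 were tested and 0 passed, with a median of -0.28 (-0.33 to -0.06 with 1 tumour left out). Klf5, a factor of the proliferating crypt, was at 455, 296 and 479 in miR-124a tumours 1, 2 and 3, against 585, 714 and 551 in control tumours 1, 2 and 3 (adjusted p = 0.136, limma). Ascl2, a crypt stem cell factor, had a positive value, at 55, 59.5 and 53.3 in miR-124a tumours 1, 2 and 3, against 50.5, 37.7 and 38.1 in control tumours 1, 2 and 3 (0.42 ± 0.14, adjusted p = 0.126, limma). Of 14 pancreatic factors, 9 were tested and 1 passed, with a median of 0.01 (-0.08 to 0.05 with 1 tumour left out). Negative values were held by 4 of the 9. The factor that passed was Isl1, a LIM homeodomain factor of endocrine cells and motor neurons. It was at 155, 127 and 112 in miR-124a tumours 1, 2 and 3, against 232, 274 and 313 in control tumours 1, 2 and 3 (-1.06 ± 0.17, adjusted p = 0.035, limma). Pax6 (0.46 ± 0.14, adjusted p = 0.114, limma) and Neurod1 (0.53 ± 0.26, adjusted p = 0.247, limma) had positive values. The Isl1 call was lost with no filter and when any 1 tumour was left out.

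Markers of other tissues that use these factors were set beside them. For airway genes 0 of 9 tested passed, with a median of -0.43, and 7 of the 9 had negative values. Scgb1a1 had the smallest p of them, with a log2 difference of -1.97 ± 0.85 (SE, adjusted p = 0.197, limma). Without miR-124a 3, 2 of them passed as lower and the median was -1.13, and without miR-124a 2 it was -0.21. Their summed signal lay between 4360 and 12100 in miR-124a tumours and between 8250 and 12300 in control tumours. Such sums are weighted to the brightest probes of a list and do not measure an amount of tissue. Here the brightest was Cyp2f2, at 2770 to 5900 in miR-124a tumours and 3330 to 7210 in control tumours. For kidney tubule genes, a tissue that also expresses Hnf4a, 0 of 6 tested passed, with a median of 0.24 (0.06 to 0.60 with 1 tumour left out). Umod, Slc12a1, Slc34a1 and Pax8 were too dim to test, and Aqp2 lay near background, at 8.88 to 14.3 over the 6 tumours. Summed signals were 545 to 805 in miR-124a tumours and 417 to 648 in control tumours. The brightest genes were Lhx1 (147 to 469 over the 6 tumours) and Cubn (75.5 to 184). The list therefore covers kidney tubule poorly. For caudal and trophoblast genes, which share Cdx2, 0 of 6 passed, with a median of 0.67 that was 1.05 without miR-124a 3 and 0.02 without control 2. Eomes, a T-box factor of trophoblast and early endoderm, had a log2 difference of 1.02 ± 0.22 (adjusted p = 0.0656, limma), and of 0.32 with normexp, where it passed (adjusted p = 0.0469, limma). Simple epithelium genes had summed signals of 5030 to 6630 in miR-124a tumours and 5200 to 8330 in control tumours. The part of tissue makeup in the Hnf4a difference was not tested.

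**Figure D4:**
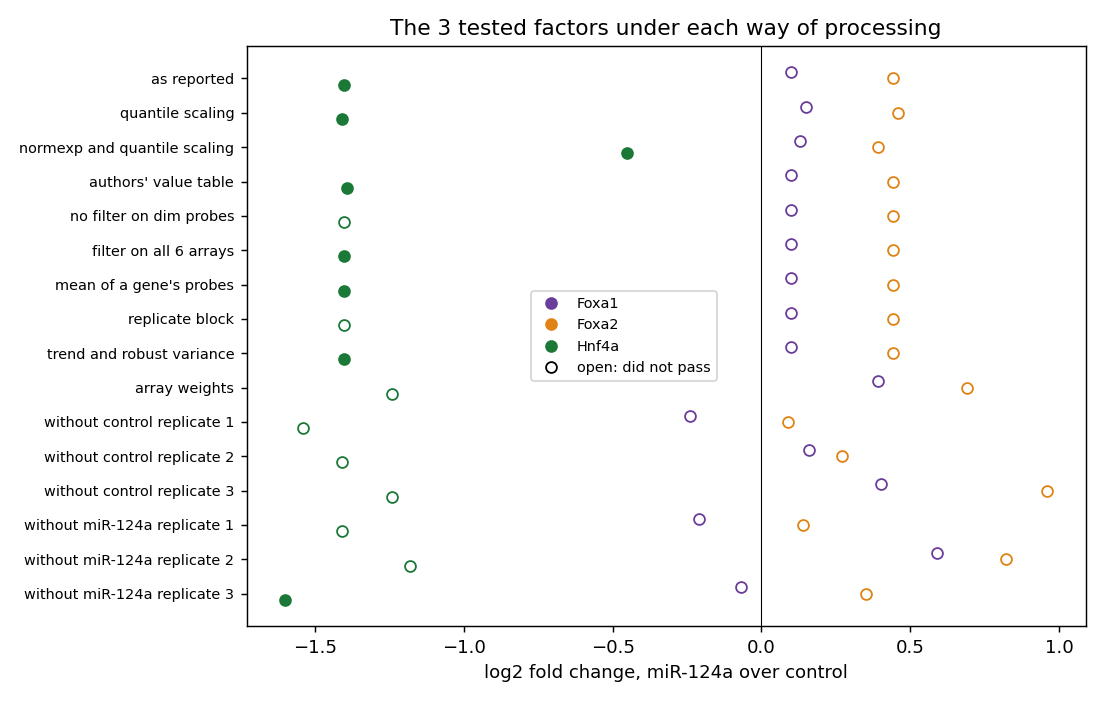
Log2 difference, miR-124a over control (x axis), of Hnf4a, Foxa2 and Foxa1 under the reported setting and each of 15 alternatives (rows), filled where the adjusted p was under 0.05 (limma). Hnf4a stays negative throughout, between -1.60 and -0.45, and Foxa1 crosses 0, between -0.24 and 0.59.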

How the data were processed

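RNA of 3 miR-124a and 3 control tumours was hybridised to 1-colour Agilent arrays. Spot intensity was read from the deposited scanner files. Per the file headers it had been background-corrected by Agilent Feature Extraction 11.5.1.1, which put surrogates in place of dim values and flagged spots well above background. The authors' deposited value table holds log2 values, equal to the log2 processed intensity less a constant per array (SD of the difference at most 0.003), with medians between -3.07 and -2.97. Signals of a probe were averaged, 22 probes flagged as outliers were left out, and log2 values had each array's 75th percentile subtracted. Probes entered the test where either group had all 3 of its arrays well above background, and the brightest such probe stood for its gene. Names came from RefSeq by accession for 32979 probes, by symbol for 10223 and by older symbol for 520, and 12861 kept the file's name. The comparison used limma 3.58.1 under R 4.3.3 (lmFit, eBayes, no covariates, Benjamini-Hochberg over 22946 genes, threshold 0.05), tested on simulated data first. The design text gives randomised groups of 3 mice, and each tumour was taken to come from its own mouse.

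The 8 factors and 12 other lists were chosen with earlier results of these data known. Named genes are the factors, up to 4 genes per list with the smallest p, any list gene that passed and the 3 genes nearest each tested factor. Shh, Spon1, Ttr, Cyp2f2 and the kidney tubule genes too dim to test stand outside this rule and were chosen after their values were seen. The 15 alternatives were quantile scaling, normexp (offset 50) with quantile scaling, the authors' table, dim probes kept, only probes above background on all 6 arrays, probes averaged per gene, a replicate block, trend and robust variance, array weights and leaving out each tumour. Figures used matplotlib 3.10.9.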

Additional observations from a re-analysis of the deposited data

How the results depend on the processing

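The count of genes called, 742 as reported, was 1524 with normexp and quantile scaling, 1725 with trend and robust variance, 96 of 37001 genes with no filter on dim probes, and 0 with the replicate block, where 4954 genes had an unadjusted p under 0.05 (limma). Leaving out 1 tumour gave 0 to 368 genes. The count was 2, 0 and 366 when miR-124a 1, 2 or 3 was left out (for the 0, 4121 at an unadjusted p under 0.05, limma), and 15, 1 and 368 when control 1, 2 or 3 was. The count of factors called, 1 as reported, was 0 with no filter (3 at an unadjusted p under 0.05, limma), with the replicate block (1) and with array weights (1), and 0 to 1 over the left-out tumours, with 1 only without miR-124a 3. The cause of these shifts was not tested, except that leaving out a tumour leaves fewer samples. Hnf4a had adjusted p-values of 0.0274 to 0.149 over the alternatives (limma), 0.113 with the replicate block, which also left 0 HNF4 or CDX targets and 0 pancreas factors called. Foxa1 reversed to -0.21 when miR-124a 1 was omitted, -0.07 when miR-124a 3 was and -0.24 when control 1 was, and its left-out range reached 0.59. Same-numbered tumours deviated from their group means with correlations of -0.16, -0.04 and -0.06, so the numbers were not taken to pair them, and 0 of 3 numbers matched best. Signals near background limit what can be said of Foxa3, Hnf4g, Cdx1, Cdx2 and Pdx1.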
